A study of Mus musculus with 18 samples.

Results

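The 10 genes described here act between fat cells and blood vessels. They comprise the vascular endothelial growth factor genes Vegfa and Vegfb, the angiopoietin genes Angpt1 and Angpt2, the receptor genes Kdr, Flt1, Tek and Tie1, and the endothelial junction genes Pecam1 and Cdh5. The genes were chosen by symbol, to set angiogenic ligands against endothelial receptors and markers, and are 10 of the 55487 genes counted in every library. The study asked what happens to fat tissue when Csn8, a subunit gene of the COP9 signalosome, is deleted in adipocytes. Bulk RNA of 18 male mice was sequenced after a fast of 4 h, with 1 mouse per library. Subcutaneous white adipose tissue (sWAT) came from 4 Ctrl and 4 Csn8AKO mice at 12 weeks of age, and brown adipose tissue (BAT) from 5 Ctrl and 5 Csn8AKO mice at 4 weeks. All the mice carried floxed Csn8 alleles (Csn8 f/f). The Csn8AKO mice also carried Cre under the adiponectin promoter, which is active in mature adipocytes, whereas their Ctrl littermates carried no Cre. Tissue and age therefore cannot be told apart, and each library holds adipocytes together with vessels, stroma and immune cells.

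Vessels of fat tissue are supplied with growth factors by the cells around them. Adipocytes are a main source of VEGF-A and VEGF-B, which bind the receptor tyrosine kinases KDR (VEGFR2) and FLT1 (VEGFR1) on endothelial cells, VEGF-B binding FLT1 alone. Angiopoietin 1, made by perivascular and stromal cells, activates the endothelial receptor TEK (TIE2) and stabilizes vessels, while angiopoietin 2, made largely by endothelial cells, can oppose it, with TIE1 as a co-receptor. PECAM1 and CDH5 (VE-cadherin) hold endothelial cells together, and PECAM1 is also present on platelets and several kinds of leukocytes.

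In the deposited annotation (GRCm38), Vegfa lies at chr17:46016993-46032369 on the minus strand and Vegfb at chr19:6982473-6987651 on the minus strand. Angpt1 lies at chr15:42424723-42676977 (minus) and Angpt2 at chr8:18690263-18741562 (minus). The receptor genes lie at chr5:75932827-75978458 for Kdr (minus), chr5:147561604-147726011 for Flt1 (minus), chr4:94739289-94874976 for Tek (plus) and chr4:118471191-118490061 for Tie1 (minus). Pecam1 lies at chr11:106654217-106750628 (minus) and Cdh5 at chr8:104101625-104144511 (plus). Counts were summed over the exons of each gene. Angpt2 lies inside Mcph1 on the other strand, and the antisense genes Gm17473 and Gm29682 overlap Angpt1 and Cdh5. The strand setting of the counting is not given in the sources used here, so reads of these 3 genes could not be separated from those of their partners.

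The sequences before the start sites of Vegfa and Vegfb are shown because both ligand genes were lower in Csn8AKO than in Ctrl fat in both tissues, and those of their receptors Kdr and Flt1 beside them because neither receptor gene passed the test. RefSeq promoter windows (GRCm38.p6) were found for 6 of the 10 genes, namely Vegfa, Vegfb, Kdr, Flt1, Tek and Tie1. Each line holds the 250 bases before a start site, 5′ to 3′ on the strand of the gene, at chr17:46032378-46032627 for the first start of Vegfa, chr19:6987652-6987901 for Vegfb, chr5:75978456-75978705 for Kdr and chr5:147726012-147726261 for Flt1, all minus. Capitals mark matches on either strand to 4 short motifs, ACGTG (the core bound by hypoxia-inducible factors), CCGGAA (the core bound by ETS factors), GGGCGG (the GC box) and AGGTCA (a half-site of nuclear receptors).
Vegfa: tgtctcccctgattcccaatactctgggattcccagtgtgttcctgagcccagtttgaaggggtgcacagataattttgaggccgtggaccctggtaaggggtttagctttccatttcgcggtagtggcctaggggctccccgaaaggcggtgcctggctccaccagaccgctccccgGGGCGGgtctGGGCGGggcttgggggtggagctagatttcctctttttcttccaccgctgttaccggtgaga
Vegfb: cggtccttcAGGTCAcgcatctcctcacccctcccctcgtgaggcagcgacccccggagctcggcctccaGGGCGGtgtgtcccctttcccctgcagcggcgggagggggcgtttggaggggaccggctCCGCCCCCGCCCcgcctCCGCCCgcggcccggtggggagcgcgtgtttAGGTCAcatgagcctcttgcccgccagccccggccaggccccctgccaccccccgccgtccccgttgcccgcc
Kdr: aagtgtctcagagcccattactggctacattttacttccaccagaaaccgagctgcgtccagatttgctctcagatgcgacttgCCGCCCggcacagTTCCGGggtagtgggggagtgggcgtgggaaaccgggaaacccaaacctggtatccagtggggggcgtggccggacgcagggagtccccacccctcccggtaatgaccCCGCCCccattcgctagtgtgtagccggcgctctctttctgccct
Flt1: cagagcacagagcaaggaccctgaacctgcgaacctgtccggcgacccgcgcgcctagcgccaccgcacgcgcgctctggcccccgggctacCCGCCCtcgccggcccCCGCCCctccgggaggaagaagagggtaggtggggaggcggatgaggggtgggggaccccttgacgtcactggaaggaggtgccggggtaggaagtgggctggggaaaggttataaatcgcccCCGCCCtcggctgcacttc
The Vegfb window held 4 GC boxes and 2 AGGTCA half-sites, and 76.4% of its bases were G or C. The Vegfa window held 2 GC boxes and 59.2% G or C, against a median of 52.4% over 32851 promoter windows. Kdr had 2 GC boxes and 1 CCGGAA match, and Flt1 had 3 GC boxes. No match overlapped another. None of the 4 windows held ACGTG, while the window of a second Vegfa start inside the gene (chr17:46025164-46025413, not shown) held 1 such match. Sequence farther than 250 bases before a start site was not searched, so matches there would not be seen. Over all the promoter windows of the same length, 32.7% held a GC box, 14% an AGGTCA half-site, 12% CCGGAA and 16.6% ACGTG.

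Between 15835721 and 23109603 reads were counted per sWAT library and between 26658593 and 66719937 per BAT library. No difference by genotype passed in either tissue (two-sided exact permutation tests, p = 0.943 and p = 0.103, where the smallest possible values are 0.0286 and 0.00794). In BAT, however, the median was 56377966 in Ctrl and 30099221 in Csn8AKO libraries, and Csn8AKO replicates 2, 3 and 5 lay below every Ctrl library. Ribosomal RNA genes took 1.8% to 47.8% of the reads in sWAT and 0.863% to 15.1% in BAT. Ucp1, the uncoupling protein of brown adipocytes, marked the tissues as labelled, with 1568 to 4440 CPM in the BAT of Ctrl mice against 0.3168 to 6.887 CPM in their sWAT. Cops8, the mouse symbol of Csn8, was 34.98 ± 0.911 CPM in Ctrl and 32.22 ± 2.99 CPM in Csn8AKO sWAT (SD, n = 4), and 39.45 ± 3.22 and 32.15 ± 3.56 CPM in BAT (SD, n = 5). Its log2 fold change was -0.12 in sWAT (adjusted p = 0.623) and -0.30 in BAT (adjusted p = 0.0211, edgeR). The deleted exons were not counted apart from the rest of the gene, so this is a weak check of the deletion. Some libraries stood apart in their cell makeup. Of the sWAT libraries, Ctrl replicate 1 and Csn8AKO replicate 2 had summed B and T cell marker levels of 364.4 and 728 CPM, against 13.17 to 40.09 CPM in the other 6. Of the BAT libraries, Csn8AKO replicates 1 and 5 had summed skeletal muscle marker levels of 129.5 and 233.7 CPM, against at most 4.09 CPM in the others. In sWAT, Ctrl replicate 3 and Csn8AKO replicate 4 had 3124 and 1877 CPM of these markers, against 50.24 to 621 CPM in the others. Each also had the highest Vegfa of its group. The part of muscle in that level was not tested, and no fit left out both libraries.

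Among the 10 genes, Vegfa and Vegfb stood out as the most abundant in Ctrl fat. Levels are given as CPM, the count of a gene scaled to a common library size, after TMM scaling, which corrects for unequal composition of libraries, within each tissue. Compared between genes per kilobase of exon, Vegfa reached 70.43 ± 18 and Vegfb 50.33 ± 5.87 CPM per kb in Ctrl sWAT (SD, n = 4), and 125 ± 8.15 and 73.63 ± 9.32 in Ctrl BAT (SD, n = 5). Vegfa and Vegfb overlapped in sWAT and did not overlap in BAT. Cdh5 came next, with 34.56 ± 3.8 CPM per kb in sWAT and 68.17 ± 4.72 in BAT, the latter overlapping with Vegfb. The other endothelial genes lay between 7.609 CPM per kb for Flt1 and 16.81 for Pecam1 in sWAT, where Kdr, Tie1 and Tek overlapped with one another, and between 14.52 for Tek and 31.55 for Tie1 in BAT. Angpt1 and Angpt2 were the lowest in both tissues, with 5.622 ± 0.721 and 2.8 ± 0.319 CPM per kb in sWAT and 3.761 ± 1.5 and 1.901 ± 0.161 in BAT. When the 18 libraries were scaled together, the Ctrl level in BAT was 2.77 times that in sWAT for Tie1, 2.36 times for Flt1, 2.23 times for Kdr, 2.11 times for Cdh5 and 1.9 times for Vegfa, all without overlap between the groups. For Angpt2 it was 0.727 times, also without overlap, while Tek and Angpt1 overlapped.

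**Figure D1:**
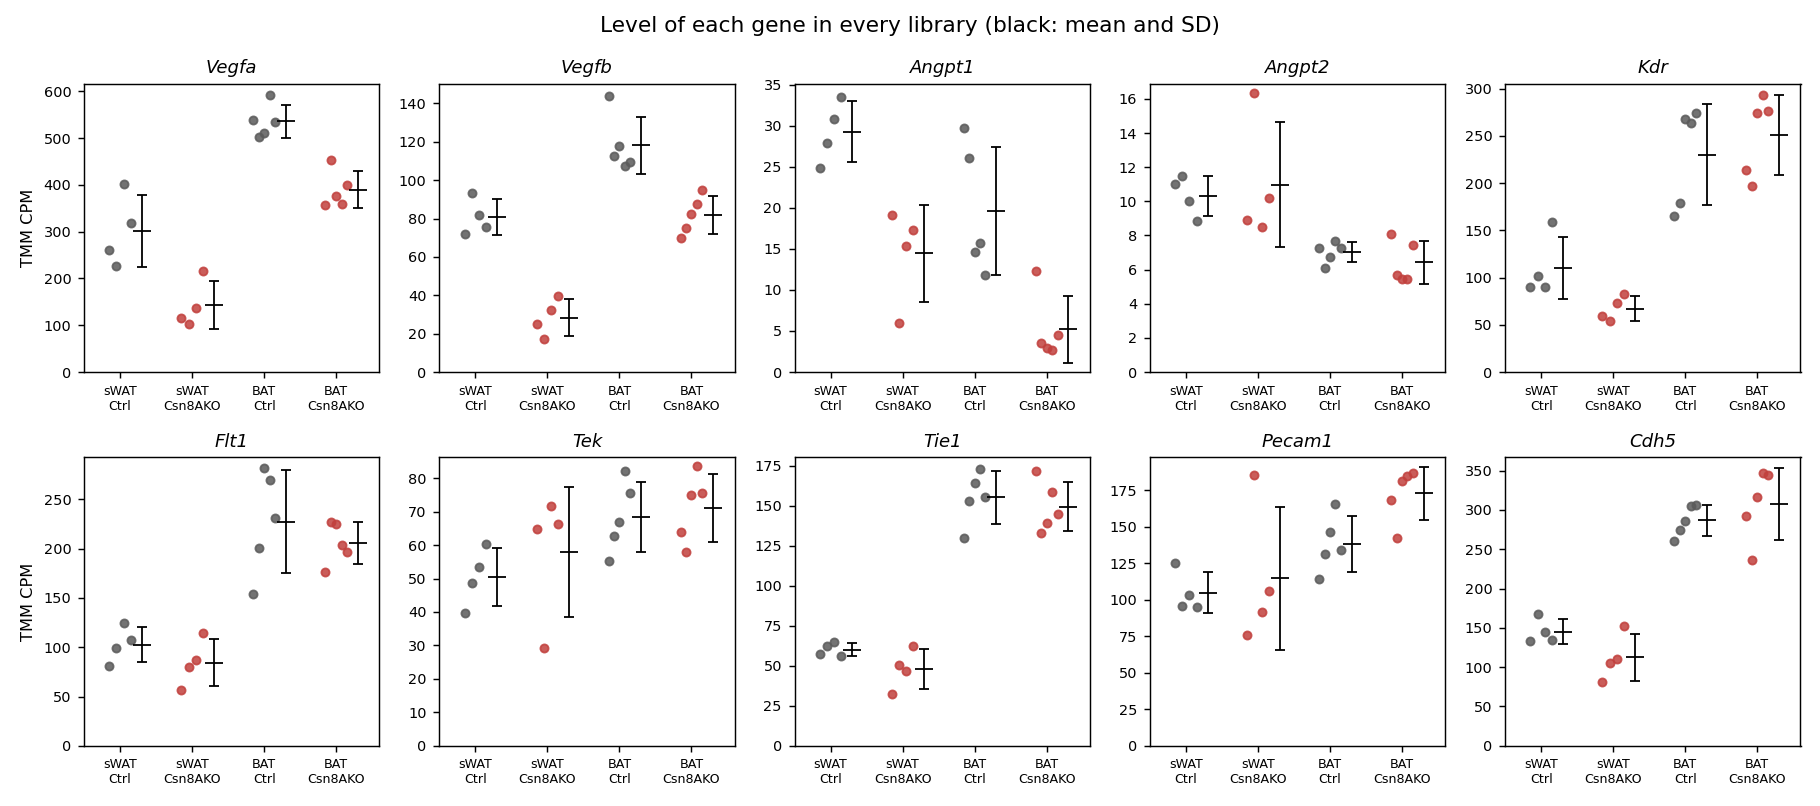
Level of each of the 10 genes in TMM-scaled CPM (y axis, linear, from 0) in every library (points) of the 4 groups, with the group mean and SD in black; scaling was done within each tissue, so that heights are comparable within sWAT and within BAT. The Csn8AKO points of Vegfa and Vegfb lie below all Ctrl points in both tissues, and those of Angpt1 and Kdr do so in sWAT.

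Both VEGF ligand genes were lower in Csn8AKO than in Ctrl fat. In sWAT, Vegfa was 260.0, 226, 402 and 319.1 CPM in the Ctrl libraries and 115.3, 103.2, 136.3 and 216.1 CPM in the Csn8AKO libraries. Every Csn8AKO library lay below every Ctrl library, although Csn8AKO replicate 4 was close to Ctrl replicate 2. The Csn8AKO mean was 47.3% of the Ctrl mean, with a log2 fold change of -1.08 ± 0.26 (SE, adjusted p = 0.0418, edgeR quasi-likelihood test with Benjamini-Hochberg adjustment, as for every adjusted p given below). The result was close to the threshold. Leaving out any single library other than Csn8AKO replicate 4 moved the adjusted p above 0.05 (up to 0.132, without Csn8AKO replicate 3), with log2 fold changes between -1.36 and -0.92. In bulk tissue, fewer cells of a type cannot be told apart from less RNA of a gene per cell.

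Vegfb showed the difference of the largest size among the 10 genes in sWAT. Its level was 72, 93.53, 81.91 and 75.71 CPM in Ctrl and 24.96, 16.97, 32.13 and 39.41 CPM in Csn8AKO libraries. The groups were wide apart, the lowest Ctrl library being well above the highest Csn8AKO library. The Csn8AKO mean was 35.1% of the Ctrl mean, with a log2 fold change of -1.51 ± 0.23 (SE, adjusted p = 0.0069). The call held without each of the 8 libraries in turn, with adjusted p values of at most 0.0319 and log2 fold changes between -1.72 and -1.33.

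Adipocyte markers moved with both ligands in sWAT. Of 12 adipocyte markers, all measured above 0 and tested, 4 were lower, none was higher, and all 12 had a log2 fold change below 0, with a median of -0.97 against 0.03 over all 18843 genes tested. Of those 18843 genes, 3% were lower and 2.3% higher. The summed marker level ranged from 16790 to 23970 CPM in Ctrl and from 6820 to 16080 CPM in Csn8AKO libraries, without overlap. The markers called lower were Slc2a4, the insulin-responsive glucose transporter (log2 fold change -2.12, adjusted p = 0.00544), Pnpla2, the adipose triglyceride lipase (-1.28, adjusted p = 0.0178), Lipe, the hormone-sensitive lipase (-1.18, adjusted p = 0.0443), and the lipid droplet gene Cidec. The call of Slc2a4 was kept in 8 of 8 fits that left out a library, those of Pnpla2 and Lipe in 3. The part of adipocyte content in the levels of Vegfa and Vegfb was not tested.

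In BAT, the same ligand genes were lower by a smaller ratio. Vegfa was 539.7, 501.8, 511.1, 591.4 and 533.6 CPM in Ctrl and 357.5, 454, 376.2, 359.8 and 399.6 CPM in Csn8AKO libraries. No library of the groups overlapped. On the log2 scale the fold change was -0.46 ± 0.094 (SE, adjusted p = 0.00198), a Csn8AKO mean of 72.7% of Ctrl. Vegfb was 144, 112.6, 117.6, 107.2 and 109.4 CPM in Ctrl and 70.02, 75.22, 82.17, 87.51 and 94.91 CPM in Csn8AKO libraries, again without overlap. The Ctrl libraries of Vegfb lay close together except for replicate 1, which was the highest. Its log2 fold change was -0.53 ± 0.10 (SE, adjusted p = 0.0014), and the Csn8AKO mean was 69.4% of Ctrl. Both calls held without each of the 10 libraries in turn. When the spread was estimated over the 4 groups together, Vegfa in BAT no longer passed (adjusted p = 0.0601, log2 fold change -0.48).

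Adipocyte markers overlapped between the groups in BAT when summed, though not each one did. The summed level of the 12 markers was 15180 to 18480 CPM in Ctrl and 15690 to 19430 CPM in Csn8AKO libraries, and their median log2 fold change was 0.02 against 0.01 over all 22345 genes tested. Lipe (-0.38, adjusted p = 0.0221), Pnpla2 (-0.37, adjusted p = 0.0306) and Slc2a4 (-0.55, adjusted p = 0.0036) were lower. Adrb3, the adipocyte beta-adrenergic receptor, was higher (1.09, adjusted p = 0.000148). These are 3 lower and 1 higher of 12, where 15.8% of all genes were lower and 16% higher. Without overlap, 1 marker was lower (Slc2a4) and 1 higher (Adrb3), against 10.9% and 10.1% of all genes. The call of Pnpla2 was kept in 3 of 10 fits that left out a library and that of Lipe in 7. The part of adipocyte content in the levels of Vegfa and Vegfb was not tested in BAT either.

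The fall of Vegfb was smaller in BAT than in sWAT by the interaction of genotype and tissue, with a difference in log2 fold change of 0.97 ± 0.26 (SE, adjusted p = 0.0492). It was the single gene of the 10 past the threshold in this comparison, where 2.36% of 22509 genes tested passed, 1.61% with a value above 0 and 0.755% with one below 0. The result sat at the threshold, and passed in 6 of the 18 fits that left out a library (without sWAT Ctrl replicate 1, sWAT Csn8AKO replicates 2 or 4, BAT Ctrl replicate 1, or BAT Csn8AKO replicates 1 or 2; highest adjusted p of the 18 fits 0.111). For Vegfa the difference was 0.61 ± 0.27 (SE, adjusted p = 0.285).

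Of the angiopoietins, Angpt1 was lower and Angpt2 was not found to differ. In BAT, Angpt1 was 29.7, 26.07, 14.62, 15.65 and 11.85 CPM in Ctrl and 12.33, 3.509, 2.956, 2.695 and 4.478 CPM in Csn8AKO libraries. Csn8AKO replicate 1 was far above the other 4 of its group and overlapped with the lowest Ctrl library. The log2 fold change was -1.89 ± 0.48 (SE, adjusted p = 0.0152), the largest in size of the 10 genes in either tissue, and the Csn8AKO mean was 26.5% of Ctrl. The call held without each of the 10 libraries in turn (adjusted p of at most 0.0425), and without the 2 Csn8AKO libraries with high skeletal muscle markers the log2 fold change was -2.69 (adjusted p = 0.000473).

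In sWAT, Angpt1 was 24.8, 27.9, 30.86 and 33.49 CPM in Ctrl and 19.08, 5.929, 15.37 and 17.35 CPM in Csn8AKO libraries. The groups did not overlap, and Csn8AKO replicate 2, the library with the highest B and T cell markers, was the lowest. The log2 fold change of -1.02 ± 0.31 (SE) did not pass (adjusted p = 0.0925). Without Csn8AKO replicate 2 the value was -0.76 and passed (adjusted p = 0.0145), as it did with DESeq2 (0.0218), voom (0.0117) and the B and T cell marker level as a covariate (0.00979). Angpt2 was 11, 11.5, 10.01 and 8.827 CPM in Ctrl and 8.936, 16.34, 8.48 and 10.17 CPM in Csn8AKO libraries of sWAT, the same replicate 2 being the highest. In BAT it ranged from 6.115 to 7.657 CPM in Ctrl and from 5.464 to 8.08 CPM in Csn8AKO libraries. Its log2 fold changes were 0.09 ± 0.23 in sWAT (SE, adjusted p = 0.874) and -0.12 ± 0.14 in BAT (SE, adjusted p = 0.549). Angpt2 changed sign in sWAT without Csn8AKO replicate 2 (-0.17) and in BAT with scaling by library size alone (0.02), so that no direction can be given.

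The VEGF receptor genes did not pass the test in either tissue. Kdr was 89.97, 102, 89.79 and 158.5 CPM in Ctrl and 58.89, 54.45, 73.5 and 82.27 CPM in Csn8AKO libraries of sWAT. The groups did not overlap, with Ctrl replicate 4 far above the other 3. The log2 fold change was -0.71 ± 0.21 (SE, adjusted p = 0.0879), and it passed with DESeq2 (adjusted p = 0.0358), with the spread estimated over the 4 groups (0.0352) and with the B and T cell marker level as a covariate (0.0309). In BAT, Kdr was 165.5, 178.6, 268.5, 263.5 and 274.8 CPM in Ctrl and 213.8, 197.2, 274.5, 293.1 and 276.2 CPM in Csn8AKO libraries. Replicates 1 and 2 were the lowest of either group, and the log2 fold change was 0.12 ± 0.16 (SE, adjusted p = 0.604). Between the tissues the log2 fold changes of Kdr differed by 0.83 ± 0.29 (SE), which did not pass (adjusted p = 0.151).

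Flt1, the receptor of both VEGF-A and VEGF-B, was 80.69 to 124.6 CPM in Ctrl and 56.35 to 114 CPM in Csn8AKO libraries of sWAT, and 153.9 to 281.4 and 176 to 227 CPM in BAT. The groups overlapped in both tissues. Its log2 fold changes were -0.28 ± 0.21 (SE, adjusted p = 0.517) and -0.14 ± 0.14 (SE, adjusted p = 0.484). The ratio of Vegfb to Flt1 CPM within a library was 0.658 to 0.946 in Ctrl and 0.212 to 0.443 in Csn8AKO sWAT, and 0.397 to 0.936 and 0.331 to 0.483 in BAT.

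The angiopoietin receptor genes overlapped between the groups as well. Tek was 39.64, 48.56, 53.3 and 60.23 CPM in Ctrl and 64.77, 29.15, 71.63 and 66.41 CPM in Csn8AKO libraries of sWAT. Of the Csn8AKO libraries, 3 lay above every Ctrl library, whereas replicate 2 lay below them. The log2 fold change was 0.20 ± 0.26 (SE, adjusted p = 0.725), and without Csn8AKO replicates 3 and 4, which had the highest shares of ribosomal RNA, it was -0.12. Without Csn8AKO replicate 2 it was 0.42 (adjusted p = 0.113). In BAT, Tek was 55.12 to 82.01 CPM in Ctrl and 57.99 to 83.5 CPM in Csn8AKO libraries, with a log2 fold change of 0.06 ± 0.12 (SE, adjusted p = 0.755). Tie1 was 55.92 to 64.56 CPM in Ctrl and 32.41 to 62.52 CPM in Csn8AKO sWAT, and 129.6 to 173.1 and 133.2 to 171.6 CPM in BAT. Its log2 fold changes were -0.32 ± 0.18 (SE, adjusted p = 0.367) and -0.05 ± 0.10 (SE, adjusted p = 0.715), the latter turning to 0.08 with scaling by library size alone.

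The junction genes gave mixed results. Pecam1 in BAT was 114.2, 131, 146, 165.2 and 133.8 CPM in Ctrl and 168.4, 142.2, 181, 184.9 and 186.6 CPM in Csn8AKO libraries. Apart from Csn8AKO replicate 2, every Csn8AKO library lay above the highest Ctrl library. Pecam1 thus had a log2 fold change of 0.32 ± 0.11 (SE, adjusted p = 0.0325). The call was lost without Ctrl replicates 1, 2 or 5 or Csn8AKO replicates 3, 4 or 5 (highest adjusted p 0.0808, without Ctrl replicate 1), and without Csn8AKO replicates 1 and 5, those with skeletal muscle markers, the log2 fold change was 0.30 (adjusted p = 0.122). BAT Ctrl replicate 1 was the lowest Ctrl library for Kdr, Flt1, Tek, Tie1, Pecam1 and Cdh5, and the highest for Vegfb and Angpt1.

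In sWAT, Pecam1 was 124.8, 95.76, 103.2 and 94.92 CPM in Ctrl and 75.7, 185.3, 91.7 and 105.6 CPM in Csn8AKO libraries. The highest library of each group was the one with high B and T cell markers. The log2 fold change was 0.13 ± 0.25 (SE, adjusted p = 0.828), and without these 2 libraries it was -0.10 (adjusted p = 0.722). Summed markers of lymph node vessels were 25.84 and 95.18 CPM in the same 2 libraries. Their part in the Pecam1 level was not tested. Cdh5, which is more restricted to endothelium, was 133.5, 167.9, 145.2 and 134.5 CPM in Ctrl and 81.16, 105.4, 110.9 and 152.6 CPM in Csn8AKO sWAT, where 3 of 4 Csn8AKO libraries lay below every Ctrl library. Its log2 fold change was -0.37 ± 0.19 (SE, adjusted p = 0.311). In BAT, Cdh5 was 260.8 to 306.7 CPM in Ctrl and 236.6 to 347.2 CPM in Csn8AKO libraries (0.10 ± 0.11, SE, adjusted p = 0.511).

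**Figure D2:**
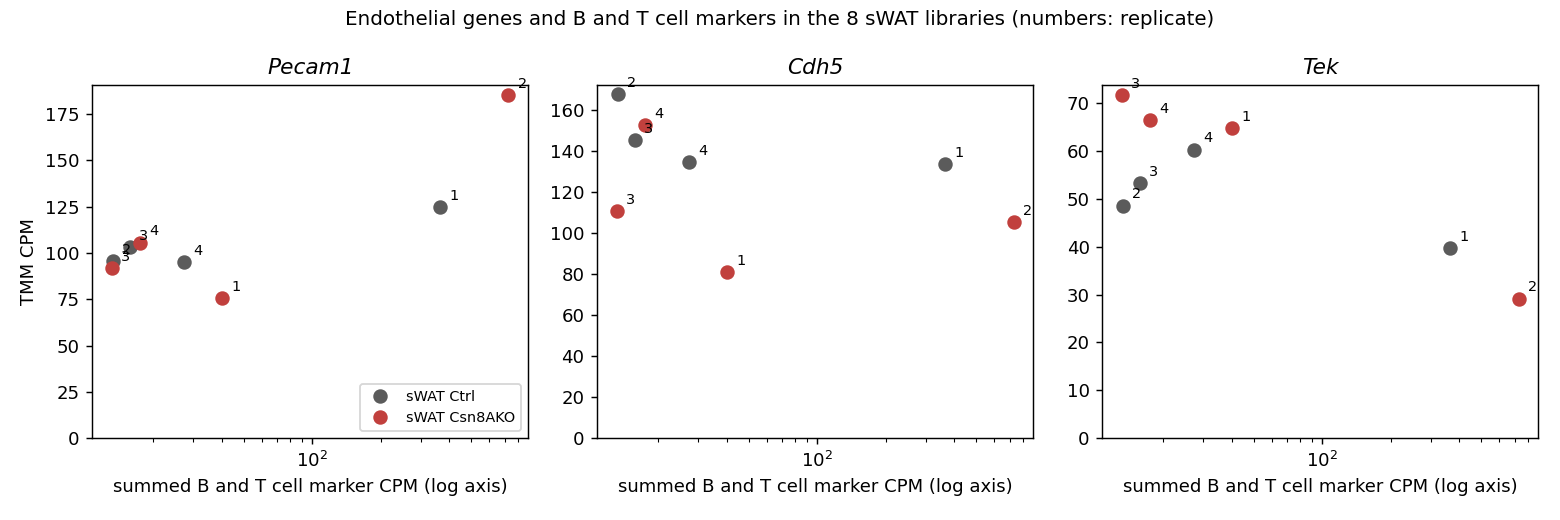
TMM-scaled CPM of Pecam1, Cdh5 and Tek (y axes, linear, from 0) against the summed level of 12 B and T cell markers (x axis, CPM, log scale) in the 8 sWAT libraries, grey for Ctrl and red for Csn8AKO, numbered by replicate. Ctrl replicate 1 and Csn8AKO replicate 2 lie at 364.4 and 728 CPM of B and T cell markers, with the highest Pecam1 and the lowest Tek of their groups.

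In all, 2 of the 10 genes, Vegfa and Vegfb, were lower and none was higher in Csn8AKO sWAT, where 5.31% of all genes tested passed in either direction, 3% lower and 2.3% higher. Their median log2 fold change was -0.34. Without overlap between the groups, 4 genes were lower (Vegfa, Vegfb, Angpt1 and Kdr) and none was higher, against 14% of all genes in either direction, 8.23% lower and 5.8% higher. In BAT, 3 genes were lower and 1 was higher, where 31.9% of all genes tested passed, 15.8% lower and 16% higher, so that 4 of 10 is a share near that of all genes. Without overlap, 2 genes were lower in BAT and none was higher, against 21% of all genes, 10.9% lower and 10.1% higher, and the median log2 fold change of the 10 was -0.09.

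**Figure D3:**
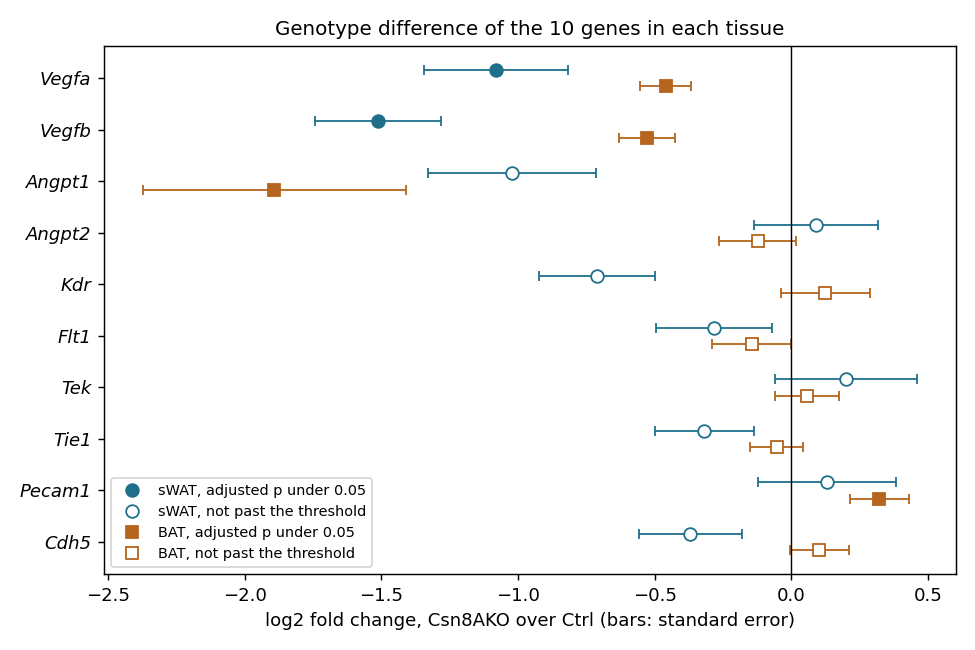
Log2 fold change of Csn8AKO over Ctrl (x axis) with its standard error for the 10 genes (y axis) in sWAT (blue circles) and BAT (brown squares), filled where the adjusted p was under 0.05. Vegfa and Vegfb lie left of 0 in both tissues, at -1.08 and -1.51 in sWAT and -0.46 and -0.53 in BAT, whereas the receptor and junction genes lie between -0.71 and 0.32.

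Set against the endothelial genes of the same library, the ligands were lower in both tissues. The mean log2 CPM of Vegfa and Vegfb minus that of Kdr, Flt1, Tek, Tie1, Pecam1 and Cdh5 is a difference within a library, from which the scaling cancels. In sWAT it was 0.764, 0.712, 0.992 and 0.712 in Ctrl and -0.141, -0.756, -0.232 and -0.004 in Csn8AKO libraries, and the group means differed by -1.08. In BAT it was 1.073, 0.645, 0.442, 0.387 and 0.45 in Ctrl and -0.062, 0.296, -0.054, -0.117 and 0.086 in Csn8AKO libraries, with a difference of -0.57. The groups did not overlap in either tissue, with BAT Csn8AKO replicate 2 and BAT Ctrl replicate 4 closest to each other. For Vegfa alone, minus the same 6 genes, the libraries did not overlap in sWAT (1.348 to 2.14 in Ctrl and 0.546 to 1.223 in Csn8AKO) but did in BAT (1.501 to 2.026 and 0.903 to 1.593). With 24 other pan-endothelial markers in place of the 6 genes the differences were -1.22 and -0.75. No test was made of these sums, since their genes were chosen together.

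The balance of the angiopoietins was higher on the side of Angpt2 in Csn8AKO fat. Angpt2 over Angpt1, as a ratio of CPM, was 0.443, 0.412, 0.324 and 0.264 in Ctrl and 0.468, 2.76, 0.552 and 0.586 in Csn8AKO sWAT. In BAT it was 0.245, 0.235, 0.462, 0.489 and 0.612 in Ctrl and 0.655, 1.62, 1.85, 2.03 and 1.66 in Csn8AKO libraries. The groups did not overlap, but the closest libraries were near each other in both tissues. On the log2 scale the difference of the group means was 1.19 in sWAT and 1.94 in BAT. In sWAT, Csn8AKO replicate 2 was far above the other libraries, and without it the difference was 0.592. Of the pair, Angpt1 passed the test in BAT and Angpt2 in neither tissue.

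**Figure D4:**
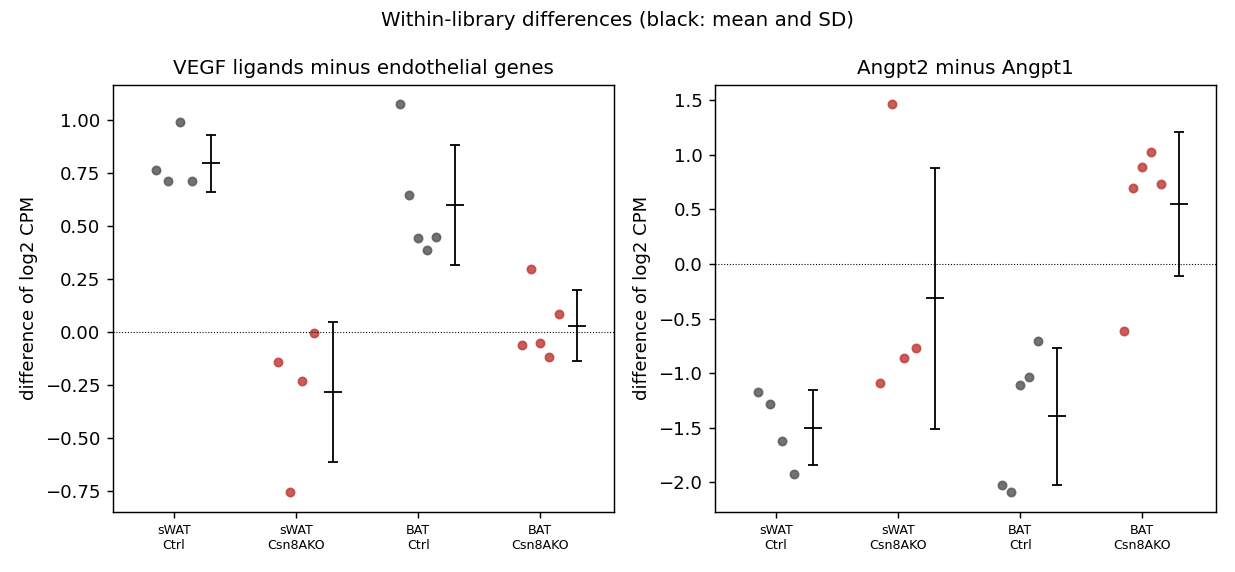
Differences of log2 CPM within each library (y axes) in the 4 groups, with the group mean and SD in black: at left the mean of Vegfa and Vegfb minus the mean of 6 endothelial genes, at right Angpt2 minus Angpt1. At left the Csn8AKO points lie below the Ctrl points in each tissue (means 0.795 and -0.283 in sWAT, 0.599 and 0.03 in BAT), and at right they lie above (-1.5 and -0.315 in sWAT, -1.394 and 0.546 in BAT).

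Of the other VEGF family genes, Nrp2, a co-receptor of VEGF-C and semaphorins, moved differently in the tissues. It was 61.41, 63.35, 70.42 and 68.85 CPM in Ctrl and 74.54, 96.27, 103.2 and 100.9 CPM in Csn8AKO sWAT, where it was higher without overlap but did not pass (log2 fold change 0.51, adjusted p = 0.0582). In BAT it was 254.5 to 290.8 CPM in Ctrl and 159.2 to 242.9 CPM in Csn8AKO libraries, lower without overlap (-0.45, adjusted p = 0.00953). The difference between the tissues was -0.96 (adjusted p = 0.00801), and it passed in 18 of 18 fits that left out a library. Pgf, the placental growth factor, was higher in BAT, from 0.604 ± 0.195 to 1.786 ± 0.759 CPM (SD, n = 5, log2 fold change 1.58, adjusted p = 0.00205). Vegfc, Vegfd, Flt4 and Nrp1 passed in neither tissue. Of 6 such genes, none was called in sWAT, and 1 was higher and 1 lower in BAT, where 16% of all genes were higher and 15.8% lower.

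Of 6 other genes of the angiopoietin pathway, 1 was higher in sWAT, and 1 was higher and 1 lower in BAT. The shares over all genes were 2.3% higher in sWAT, and 16% higher and 15.8% lower in BAT. Angptl4, an angiopoietin-like inhibitor of lipoprotein lipase that does not bind TEK, was 168.1 ± 34.2 CPM in Ctrl and 75.44 ± 12.2 CPM in Csn8AKO BAT (SD, n = 5, -1.16, adjusted p = 6.16e-05), and 248.3 ± 32.8 and 212.6 ± 26.2 CPM in sWAT (SD, n = 4, -0.22, adjusted p = 0.478). The difference between the tissues was -0.94 (adjusted p = 0.0296), past the threshold in 13 of 18 fits that left out a library. Angpt4, a further TEK ligand, rose from 0.2208 ± 0.131 to 0.6045 ± 0.299 CPM in BAT (SD, n = 5, 1.40, adjusted p = 0.0396), a call kept in 4 of 10 such fits. Dok2, an adaptor of TEK that is also expressed in blood cells, was higher in sWAT (0.74, adjusted p = 0.0288), a call kept in 3 of 8 such fits. Ptprb, the endothelial phosphatase that acts on TEK, Angptl2 and Svep1 passed in neither tissue.

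Among 24 pan-endothelial markers beyond the 10 genes, none passed in sWAT and 5 were higher in BAT, where 16% of all genes were higher. The median log2 fold change was -0.12 in sWAT and 0.20 in BAT, against 0.03 and 0.01 over all genes tested. The summed level was 875.5 to 991.5 CPM in Ctrl and 649.3 to 1046 CPM in Csn8AKO sWAT, and 1145 to 1687 and 1436 to 1801 CPM in BAT, overlapping in both. The 5 higher in BAT were Plvap, a diaphragm protein of fenestrated and venous endothelium (1.01, adjusted p = 0.00836), the transcription factor Sox18 (0.82, adjusted p = 0.0167), the matrix gene Mmrn2 (0.40, adjusted p = 0.0136), the sialomucin Emcn (0.28, adjusted p = 0.0433) and Egfl7. The call of Emcn was kept in 3 of 10 fits that left out a library, those of Plvap, Sox18 and Mmrn2 in 10 of 10.

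Over all genes tested, 2.3% were higher in sWAT and 16% in BAT. By vessel type, 3 of 7 lymphatic markers tested were higher in each tissue and none was lower. In sWAT these were Pdpn (1.16, adjusted p = 0.00925), Reln (1.25, adjusted p = 0.0499) and Mmrn1 (1.76, adjusted p = 0.0369). Only the call of Pdpn, a podoplanin gene also expressed by stromal cells and macrophages, was kept in 8 of 8 fits that left out a library, Mmrn1 keeping it in 2 and Reln in 1. Csn8AKO replicate 2, the library highest in B and T cell and lymph node vessel markers, had the highest Reln (20.77 CPM), Mmrn1 (10.64 CPM), Prox1 (8.917 CPM) and Stab2 (31.59 CPM) of the sWAT libraries, and Ctrl replicate 1 had the highest Prox1 (3.258 CPM) and Stab2 (11.22 CPM) of the Ctrl libraries. Without these 2 libraries Pdpn (1.18, adjusted p = 0.00852) and Mmrn1 (1.59, adjusted p = 0.0361) passed and Reln did not (1.14, adjusted p = 0.0816), whereas with the B and T cell marker level as a covariate all 3 passed (highest adjusted p 0.0194). In BAT they were Stab2 (2.22, adjusted p = 3.47e-05), Reln (2.05, adjusted p = 0.00062) and Pdpn (0.87, adjusted p = 0.0265, kept in 7 of 10 fits). Levels in BAT were low, at most 3.127 CPM for Stab2 and 1.053 CPM for Pdpn in any library. The lymphatic markers Prox1 and Flt4 passed in neither tissue. Of 8 venous markers, 1 was higher in sWAT and 4 in BAT. The other 4 did not pass in BAT, and 2 of the 8 had a log2 fold change below 0 there. Among those higher in BAT were the adhesion receptor Vcam1 (1.69, adjusted p = 5.51e-07) and von Willebrand factor Vwf (0.66, adjusted p = 0.000575). Vcam1 was 8.13 ± 1.31 CPM in Ctrl and 26.11 ± 2.75 CPM in Csn8AKO BAT (SD, n = 5), without overlap. Ackr1, a chemokine receptor of venules, was the one in sWAT (0.88, adjusted p = 0.0345) and also passed in BAT (0.97, adjusted p = 0.0451), calls kept in 2 of 8 and 1 of 10 such fits. Its level in BAT was at most 1.687 CPM in any library.

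Of 8 arterial markers, none passed in sWAT. In BAT, where 16% of all genes were higher and 15.8% lower, Gja4 (0.61, adjusted p = 0.0114) and Sox17 (0.52, adjusted p = 0.0178) were higher. Dll4, a Notch ligand of arterial and sprouting endothelium that VEGF induces, was lower in BAT, from 27.42 ± 7.75 to 14.6 ± 2.95 CPM (SD, n = 5, -0.91, adjusted p = 0.00401). In sWAT it was 17.4 ± 4.3 and 8.344 ± 2.71 CPM (SD, n = 4), without overlap and not past the threshold (-1.06, adjusted p = 0.0501). All 9 capillary markers had log2 fold changes below 0 in sWAT, as did 8793 of all 18843 genes tested. The median of the 9 was -0.52 against 0.03 over all genes. Of the 9, 1 passed, where 3% of all genes were lower. The part of adipocyte content in these levels was not tested. In BAT the median of the 9 capillary markers was 0.12 against 0.01 over all genes. Of these, Aqp7, a glycerol channel shared with adipocytes, was lower in both tissues (-1.07, adjusted p = 0.0355, and -0.64, adjusted p = 0.000425), and Btnl9 was higher in BAT (0.41, adjusted p = 0.024). The call of Aqp7 in sWAT was kept in 3 of 8 fits that left out a library, and that of Btnl9 in 5 of 10.

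Of 12 markers of pericytes and smooth muscle, the mural cells that wrap vessels, 2 were lower and none higher in sWAT, and 7 were higher and 1 lower in BAT. The shares over all genes were 3% lower in sWAT, and 16% higher and 15.8% lower in BAT. The difference between the tissues passed for 1 of the 12, Rgs5. Rgs5, a pericyte marker, was 152.3 ± 11.2 CPM in Ctrl and 79.78 ± 11.9 CPM in Csn8AKO sWAT (SD, n = 4, -0.93, adjusted p = 0.00637), and its log2 fold changes differed between the tissues by 0.80 (adjusted p = 0.0109). Cspg4, the NG2 proteoglycan, was lower in both (-1.44, adjusted p = 0.0155, and -0.94, adjusted p = 0.000113). Pdgfrb (0.66, adjusted p = 0.0048) and Notch3 (0.49, adjusted p = 0.0046) were among those higher in BAT.

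**Figure D5:**
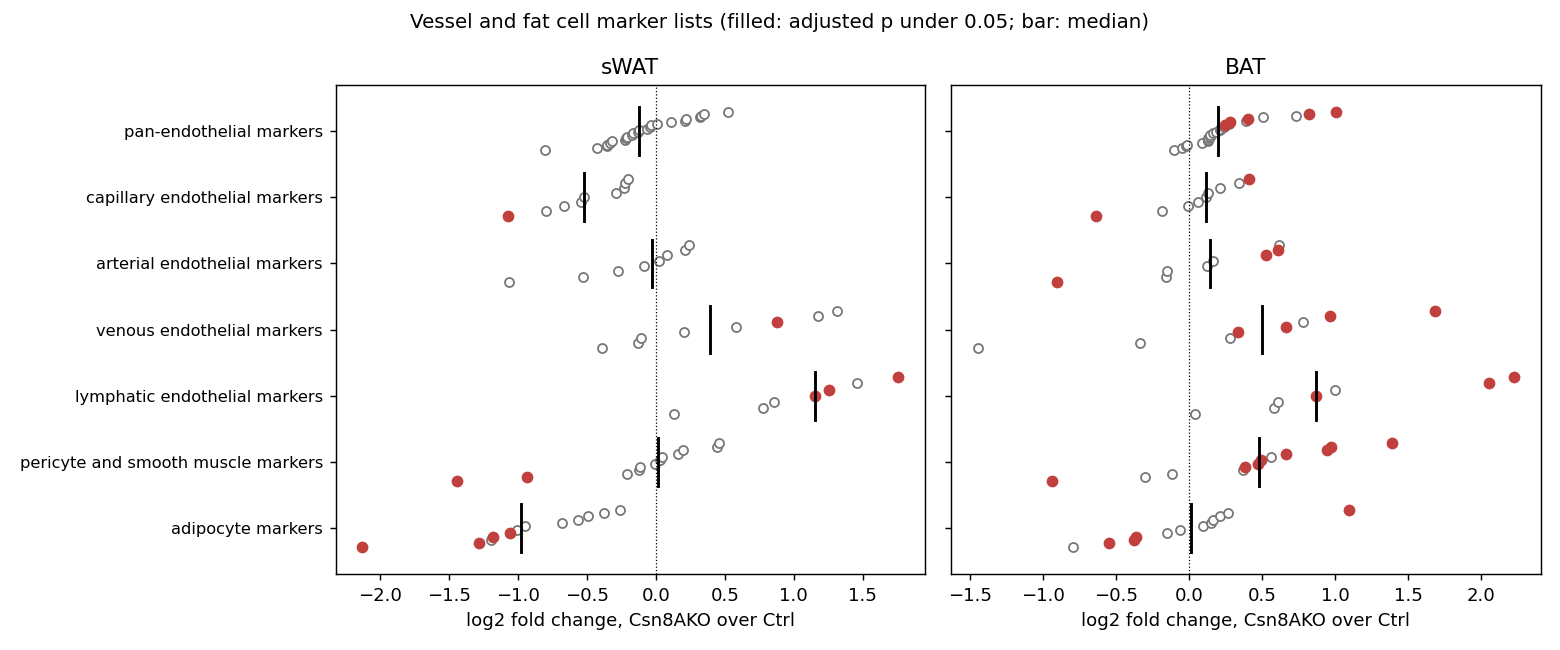
Log2 fold change of Csn8AKO over Ctrl (x axis) for every tested gene (circles) of 7 marker lists (y axis) in sWAT (left) and BAT (right), filled red where the adjusted p was under 0.05, with the median of each list as a bar. The pan-endothelial median lies at -0.12 in sWAT and 0.20 in BAT and the lymphatic median at 1.16 and 0.87, while the adipocyte median lies at -0.97 in sWAT and 0.02 in BAT.

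Other cell types moved with these results. Of 12 macrophage markers, 6 were higher in sWAT and 10 in BAT, with summed levels of 1176 to 1491 CPM in Ctrl and 1943 to 2770 CPM in Csn8AKO sWAT and of 113.5 to 156.2 and 337.1 to 445.3 CPM in BAT. Lgals3, which encodes galectin 3, was higher in sWAT (1.74, adjusted p = 0.00196) and in BAT (4.43, adjusted p = 6.9e-09), as was the lysosomal gene Cd68 (1.33, adjusted p = 0.0127, and 2.52, adjusted p = 1.12e-08). Of 10 fibroblast and progenitor markers, 1 was higher in sWAT and 10 in BAT, with summed levels of 10610 to 12310 and 11570 to 21380 CPM in sWAT and 1127 to 1872 and 2939 to 5021 CPM in BAT. By comparison, 2.3% of all genes tested were higher in sWAT and 16% in BAT. None of these macrophage, fibroblast and progenitor markers was at 0 in a whole group. The part of macrophages and stromal cells in the levels of Pecam1, Pdpn, Vcam1 and the VEGF genes was not tested.

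Among genes known to regulate Vegfa, some were lower in BAT. Of 8 such regulators none passed in sWAT and 4 were lower in BAT, namely Epas1, which encodes HIF-2alpha (-0.49, adjusted p = 0.0027), its partner Arnt (-0.29, adjusted p = 0.00745), the prolyl hydroxylase Egln1 (-0.49, adjusted p = 0.0069) and the orphan receptor Esrrg (-0.74, adjusted p = 0.000853). Of 15 target genes of hypoxia-inducible factors, none of 14 tested passed in sWAT, and 5 were lower and 1 higher in BAT. Both counts stand beside 31.9% of all genes tested that passed in BAT, 15.8% lower and 16% higher. Pdk1, which restrains pyruvate oxidation, was 182 ± 36.9 CPM in Ctrl and 85.45 ± 11.5 CPM in Csn8AKO BAT (SD, n = 5, -1.09, adjusted p = 5.86e-05), and Vldlr, the very low density lipoprotein receptor, was 253.6 ± 44.9 and 96.15 ± 37.8 CPM (SD, n = 5, -1.40, adjusted p = 0.0012). Ndrg1 was the higher one (0.43, adjusted p = 0.00269). The list of regulators was not split by whether a gene raises or lowers Vegfa, so these counts point to no direction. The part of these regulators in the level of Vegfa was not tested.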

How the data were processed

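Total RNA of bulk sWAT and BAT was depleted of ribosomal RNA, and the authors aligned paired reads with STAR to the GRCm38 genome (Ensembl release 101) and assigned unique, unambiguous reads to genes with featureCounts. Per the file headers, the deposited tables hold the resulting counts per gene beside CPM, FPKM and TPM values that the authors derived from them; only the counts were used. The 10 genes and the marker lists were chosen with earlier results of these data known. From each list, the up to 4 genes with the smallest adjusted p in either tissue are named, and any gene of the other VEGF and angiopoietin lists; Cidec and Egfl7 were added after their values were seen, to complete a count.

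Each tissue was fitted separately with edgeR 4.0.16 (R 4.3.3), using TMM factors, a filter at a minimum count of 10 and a total count of 15, and robust quasi-likelihood tests of Csn8AKO against Ctrl. A fit of the 4 groups tested the interaction of genotype and tissue. The p-values were adjusted by Benjamini-Hochberg over all genes tested, with a threshold of 0.05. The tests were tried first on simulated counts. Alternatives used DESeq2 1.42.0, limma 3.58.1 (voom with quality weights), other scalings and filters, a replicate block, and left out each library in turn. Fits without libraries of unusual makeup were chosen after seeing the data. Deviations of libraries with the same number correlated between -0.471 and 0.319 in sWAT and between -0.179 and 0.21 in BAT, so the numbers were not taken to pair mice.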

Additional observations from a re-analysis of the deposited data

Results flagged for a closer look

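Some libraries lay far from the rest of their group by Dixon's criterion, among 48 groups of libraries looked at, of which chance alone marks about 1 in 20. Vegfb was highest in BAT Ctrl replicate 1, at 144.0 CPM against 107.2 to 117.6 CPM in the other 4 libraries. Angpt1 was highest in BAT Csn8AKO replicate 1, at 12.33 CPM against 2.695 to 4.478 CPM in the others, and Angpt2 minus Angpt1 on the log2 scale was correspondingly lowest there, at -0.61. Tek was lowest in sWAT Csn8AKO replicate 2, at 29.15 CPM against 64.77 to 71.63 CPM in the others, and Angpt2 minus Angpt1 was highest in that library, at 1.462.

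For 4 of the genes of vessels and their ligands named above, the effect of genotype differed between BAT and sWAT by the interaction test (edgeR, Benjamini-Hochberg adjusted). The log2 fold change in BAT minus that in sWAT was 0.97 for Vegfb (adjusted p = 0.0492), -0.96 for Nrp2 (adjusted p = 0.00801), -0.94 for Angptl4 (adjusted p = 0.0296) and 0.80 for Rgs5 (adjusted p = 0.0109). Vegfb passed in 6 of 18 fits that left out a library. Nos3, among the 24 pan-endothelial markers and not named above, also passed, with a value above 0. Other named genes also passed this test, with values of 2.27 for Adrb3 (adjusted p = 0.00175), 1.56 for Slc2a4 (adjusted p = 0.0112), 0.80 for Ndrg1 (adjusted p = 0.0171), 0.99 for Thbs2 (adjusted p = 0.0211), 1.18 for Cd68 (adjusted p = 0.0163) and 2.67 for Lgals3 (adjusted p = 1.88e-05), among 532 genes in all. Since the mice were 4 weeks old for BAT and 12 weeks old for sWAT, tissue and age cannot be told apart in these differences.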

How the results depend on the processing

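The calls of Vegfb in both tissues and of Angpt1 in BAT held under all 20 alternatives each. That of Vegfa held under 19 of 20 in BAT but under 11 of 20 in sWAT. The difference between tissues for Vegfb passed under 13 of 27 alternatives. Among the 10 genes and the other named genes run under the alternatives (18 in sWAT, 44 in BAT and 3 for the difference between tissues), none was called with the other sign. In sWAT, where 434 genes were higher and 566 lower, scaling by library size alone gave 106 and 328, DESeq2 912 and 1034, voom 1077 and 1078, all 4 groups in one fit 1044 and 1419, and the B and T cell marker covariate 1107 and 1213. DESeq2 and the covariate each called 4 of the 10 genes lower. Without the 2 libraries high in B and T cell markers 993 genes were higher, and without the 2 highest in ribosomal RNA 130 were higher and 252 lower. Leaving out single libraries gave 147 (without Csn8AKO replicate 3) to 804 (without Csn8AKO replicate 2) higher and 179 to 673 lower (the same libraries), with 1 to 2 of the 10 genes lower. In sWAT, Angpt2 turned to -0.059 with voom, -0.14 without the libraries high in B and T cell markers, and ranged from -0.17 to 0.18 without single libraries. Pecam1 turned to -0.0587 and -0.10 in the same 2 settings and ranged from -0.20 to 0.28, and Tek turned to -0.12 without the libraries highest in ribosomal RNA.

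In BAT, scaling by library size alone left 2087 genes lower and turned Angpt2 to 0.0203 and Tie1 to 0.083. It moved the median of all genes by -0.074 in sWAT, 0.135 in BAT and 0.219 in their difference. None of the 10 genes (0) was higher in BAT with all 4 groups in one fit or without the libraries high in skeletal muscle markers, and 0 to 1 without single libraries, where Tek ranged from -0.0136 to 0.14. For the difference between tissues, with 362 genes above and 170 below 0, DESeq2 gave 737 and 355 and voom 572 and 331. RLE factors called 0 of the 10 genes above 0 (Vegfb, adjusted p = 0.0508). Library size alone left 39 genes below 0 and turned Tek to 0.16. A further fit left out the 4 libraries high in B and T cell markers (sWAT) or skeletal muscle markers (BAT). In it, 1 of the 10 was below 0 (Angpt1, -1.84). Without single libraries 103 (without sWAT Ctrl replicate 3) to 291 (without sWAT Csn8AKO replicate 2) genes were below 0 and 0 to 2 of the 10 above 0, Angpt2 ranged from -0.32 to 0.0197 and Flt1 from -0.0068 to 0.32. The causes of these differences were not tested.

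With the replicate number as a block (replicate block), 134 genes were higher and 165 lower in sWAT, with 1 of the 10 genes lower (Vegfb, Vegfa being lost at an adjusted p of 0.0528), and the difference between tissues passed for 208 genes above and 89 below 0 and for 0 of the 10 (Vegfb, adjusted p = 0.137). Only BAT replicates 1 and 5 correlated best with their own number.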

Other observations

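Of 10 angiogenesis inhibitors, 4 were higher, 1 was lower and 5 did not pass in Csn8AKO BAT, with a median log2 fold change of 0.85 against 0.01 over all genes tested. Among all genes there, 16% were higher and 15.8% lower. Thbs2, a matrix thrombospondin, was 6.613 ± 0.959 CPM in Ctrl and 18.27 ± 2.68 CPM in Csn8AKO BAT (SD, n = 5, 1.47, adjusted p = 3.54e-06). Serpinf1, which encodes PEDF, was higher in BAT (1.15, adjusted p = 6.63e-05). Col18a1, the collagen from which endostatin is cleaved, was higher in BAT (1.47, adjusted p = 5.16e-05) and in sWAT (0.67, adjusted p = 0.0389), the latter call being kept in 2 of 8 fits that left out a library. Cxcl10, an angiostatic chemokine, was lower in both, from 15.26 ± 3.29 to 5.103 ± 0.948 CPM in sWAT (SD, n = 4, -1.58, adjusted p = 0.00396) and from 6.125 ± 0.765 to 2.945 ± 0.635 CPM in BAT (SD, n = 5, -1.04, adjusted p = 0.000297). These 2 genes were the only inhibitors called in sWAT. Fibroblast markers, which were higher in BAT, moved with Thbs2, Serpinf1 and Col18a1, and their part was not tested.

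Of 10 other angiogenic factors tested, 4 were higher and 2 lower in BAT, and 1 lower in sWAT. Among all genes tested, 16% were higher and 15.8% lower in BAT, and 3% lower in sWAT. The vasoconstrictor peptide gene Edn1 (1.18, adjusted p = 0.000747) and the chemokine Cxcl12 (0.87, adjusted p = 0.0149) were higher in BAT. Fgf1 was lower (-0.51, adjusted p = 0.0117), as was the apelin gene Apln, from 8.912 ± 2.19 to 4.109 ± 1.45 CPM (SD, n = 5, -1.10, adjusted p = 0.00584). Of the tip cell genes, which mark sprouting endothelium, 4 of 9 tested were higher and 2 lower in BAT. The 2 were Dll4 and Apln, both also counted above in other lists. None of 10 passed in sWAT. Cxcr4, also a gene of leukocytes, was among those higher in BAT (1.49, adjusted p = 0.000172).

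Over the 18 libraries, Vegfa and Vegfb had a Pearson r of 0.88 (log2 CPM centred on each tissue). The centring was not done by genotype, so the difference between Ctrl and Csn8AKO remains in this and the following values of r. The 15 pairs among Kdr, Flt1, Tek, Tie1, Pecam1 and Cdh5 had a median r of 0.33, ranging from -0.43 to 0.82. The genes most like Vegfa among 11333 ranked were Pnpla2 (r = 0.923), Cfap126 (0.923) and Tln2 (0.918), and those most like Vegfb were Dmtn (0.962), Nat8l (0.955) and 1700037H04Rik (0.953). For Pecam1 they were Rin3 (0.934), Myh9 (0.934) and Lpcat4 (0.931), and for Angpt2 Trp53i11 (0.819), Ptk2b (0.811) and Slc2a1 (0.81). These values are descriptions, since libraries of one group share genotype and may share composition.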
